A study of Homo sapiens with 9 samples.

Results

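The 9 genes described here, SERPINB1, SERPINB3, SERPINB4, SERPINB5, SERPINB6, SERPINB7, SERPINB8, SERPINB9 and SERPINB13, encode clade B serpins of keratinocytes. They were taken by symbol, with no threshold on their values, and are 9 of the 16199 genes listed in at least 1 library. All 9 were listed in every library. RNA was sequenced from HaCaT cells, an immortalized human keratinocyte line, in 3 groups of 3 libraries: untreated cells, cells given epidermal growth factor (EGF, 10 nM) and cells given bleogen pB1 (1 µM), a cysteine-rich peptide of the cactus Pereskia bleo. Both treatments lasted 24 h, and according to the labels all groups were post-confluent cells in serum-free medium. The doses of the agents differ, and every library comes from 1 cell line. Nothing in the sources says that the replicates were separate cultures, so the p-values measure only the spread between these libraries, which may be technical.

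Serpins are protease inhibitors that trap their target by a large change of shape after the protease cuts their exposed loop. The clade B members lack a classical secretion signal and act mainly inside the cell, where they are known to shield the cytoplasm from lysosomal and granule proteases. In the epidermis several of them are known from the stratified layers, and inherited loss of SERPINB7 or SERPINB8 causes disorders of the skin barrier. A few, such as SERPINB5, keep the fold but do not inhibit a protease.

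The 9 genes do not form 1 cluster. In GENCODE release 44 on GRCh38, 6 of them lie on chromosome 18 between 63476958 and 64019779, a span of 543 kb, and 3 lie on chromosome 6 between 2832332 and 2972165, a span of 140 kb. On chromosome 18 the order is SERPINB5, SERPINB13, SERPINB4, SERPINB3, SERPINB7 and SERPINB8. On chromosome 6 it is SERPINB1, SERPINB9 and SERPINB6, all on the minus strand. SERPINB8 shares bases with HMSD on the same strand, and SERPINB3 lies within SERPINB11 on the opposite strand. SERPINB11 was not listed in any library, and HMSD had between 20 and 63 expected counts, against 584 to 2882 for SERPINB8.

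SERPINB3 and SERPINB4 are near-identical neighbours, which matters for every value given for them. The canonical transcripts of the pair have 1707 bases each and align with 95.7% identity, and 57 of the 1608 stretches of 100 bases in SERPINB3 also occur in SERPINB4. No other pair of the 9 transcripts shared any stretch of that length. The 250 bases before their transcription starts differed at 3 positions (98.8% identity). These upstream stretches from RefSeq (GRCh38.p14, minus strand, chr18:63661894-63662143 and chr18:63644257-63644506) are shown to make the likeness visible, with the differing bases in capitals.
SERPINB3: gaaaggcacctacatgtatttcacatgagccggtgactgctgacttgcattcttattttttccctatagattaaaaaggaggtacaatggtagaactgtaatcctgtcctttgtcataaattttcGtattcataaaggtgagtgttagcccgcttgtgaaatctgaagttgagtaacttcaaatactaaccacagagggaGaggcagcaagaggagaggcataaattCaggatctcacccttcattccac
SERPINB4: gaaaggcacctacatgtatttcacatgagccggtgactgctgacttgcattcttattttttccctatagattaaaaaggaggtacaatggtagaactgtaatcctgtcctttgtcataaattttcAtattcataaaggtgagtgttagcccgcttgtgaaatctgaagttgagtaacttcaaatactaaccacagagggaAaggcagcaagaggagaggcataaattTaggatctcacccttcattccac

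The promoter windows of the members, 250 bases before to 50 bases after each RefSeq start, were searched for TGANTCA, the letters that AP-1 transcription factors are known to bind (the motif is its own reverse complement), and for TATAAA, the TATA box, on both strands. All 9 genes had a window, with 14 windows in all because SERPINB6 has 4 and SERPINB7 has 3. Some of the windows of SERPINB6 overlap each other. The AP-1 letters occurred in 5 of the 14 windows, those of SERPINB5, SERPINB8 and SERPINB13 and 2 of the 3 of SERPINB7, against 7.71% of all 35116 windows of the same length. None of the 6 windows of the genes on chromosome 6 held them, and neither did those of SERPINB3 and SERPINB4. TATAAA occurred in 5 of the 14 windows and in 11.5% of all windows. The AP-1 letters cannot overlap those of the TATA box, but TATAAA can overlap its own reverse complement. A match describes the sequence alone and does not show that a factor binds there.

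The upstream stretches of the 4 genes with AP-1 letters are given below, limited to bases outside annotated exons of the same strand, with the motif in capitals. All are on the plus strand of GRCh38.p14. They were taken from chr18:63969831-63970028 for SERPINB8, from chr18:63777531-63777776 for the third start of SERPINB7, from chr18:63476708-63476957 for SERPINB5 and from chr18:63587128-63587299 for SERPINB13.
SERPINB8: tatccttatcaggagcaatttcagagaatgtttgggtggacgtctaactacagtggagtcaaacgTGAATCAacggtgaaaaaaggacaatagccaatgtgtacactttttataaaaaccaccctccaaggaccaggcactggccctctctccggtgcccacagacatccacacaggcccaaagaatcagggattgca
SERPINB7: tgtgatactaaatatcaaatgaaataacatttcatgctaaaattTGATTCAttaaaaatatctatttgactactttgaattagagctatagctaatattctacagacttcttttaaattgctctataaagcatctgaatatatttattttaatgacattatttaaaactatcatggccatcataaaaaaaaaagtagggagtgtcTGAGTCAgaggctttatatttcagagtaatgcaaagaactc
SERPINB5: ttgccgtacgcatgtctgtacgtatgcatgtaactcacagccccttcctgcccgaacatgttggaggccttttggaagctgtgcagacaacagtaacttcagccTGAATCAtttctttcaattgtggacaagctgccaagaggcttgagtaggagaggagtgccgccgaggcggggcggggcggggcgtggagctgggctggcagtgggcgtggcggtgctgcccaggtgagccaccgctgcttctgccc
SERPINB13: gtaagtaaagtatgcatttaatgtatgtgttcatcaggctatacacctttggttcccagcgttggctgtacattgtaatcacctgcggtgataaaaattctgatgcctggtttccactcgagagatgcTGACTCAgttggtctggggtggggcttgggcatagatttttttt
Relative to the start, the motif of SERPINB5 begins at −146 and that of SERPINB13 at −87. SERPINB8 has a match at −185 and a further match, TGAGTCA, at −28, which lies outside the stretch shown. SERPINB7 has matches at −206 and −45 relative to the start shown. Of these 4 genes, SERPINB5, SERPINB7 and SERPINB8 were higher and SERPINB13 was lower in EGF-treated cells, as described below.

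The libraries held between 20288417 and 21320994 expected counts (estimates that divide reads between the transcripts they fit), and a floor of 3 counts amounts to a CPM (count divided by TMM-scaled library size) of 0.139 to 0.151. This floor covers counting error only. All 10 keratinocyte markers were detected, and KRT5, the basal keratin, had between 68964 and 167880 counts in a library. Markers of other cells were low but not all near 0. Of the leukocyte markers PTPRC had 0 to 6 counts, CD3E 0 or 1, CD14 1 to 5, ITGAX 0 to 3.98 and LYZ 13.1 to 38.6, and NKG7 was not listed. Of the fibroblast markers COL1A2 had 0 to 3 counts, PDGFRA 0 or 1, DCN 0 to 22 and COL3A1 up to 108. For endothelium PECAM1 had 0 to 6.64 and VWF 4 to 25 counts, and for melanocytes MLANA had 1.80 to 6.79, PMEL 9 to 30 and DCT 0 or 1. COL3A1, DCN, VWF and PMEL were called lower with EGF. DCN and VWF lay below the count filter's limit of 0.485 CPM in every EGF library. They were tested only because libraries of the other groups passed that limit. DESeq2 did not call PMEL. The summed level of the 4 fibroblast markers was 4.77 to 6.34 CPM in untreated, 0.600 to 0.705 CPM in EGF-treated and 3.57 to 5.83 CPM in bleogen pB1-treated cells, most of it COL3A1, which had 93 to 107, 11 to 14 and 64 to 108 counts, and the part of these markers in the results below was not tested. That of 5 leukocyte markers was 0.860 to 1.92, 0.963 to 1.66 and 1.39 to 2.25 CPM.

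In untreated cells the 9 genes differed widely in level. On the FPKM scale (fragment counts scaled for transcript length and depth), which allows a comparison between genes, SERPINB5 (maspin) was the highest with 154 ± 7.01 (SD, n = 3). It was followed by SERPINB6 with 73.4 ± 0.578, SERPINB13 with 67.99 ± 3.16, SERPINB1 with 37.98 ± 0.752, SERPINB7 with 13.9 ± 0.517 and SERPINB8 with 10.9 ± 0.306. SERPINB9 had 1.12 ± 0.165 FPKM, and SERPINB3 and SERPINB4 had 0.200 ± 0.080 and 0.193 ± 0.0702. In 7 of the 8 neighbouring pairs of this order the ranges over the 3 libraries did not overlap, the exception being SERPINB3 and SERPINB4.

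The order was different in EGF-treated cells and the same in bleogen pB1-treated cells. With EGF, SERPINB13 moved from the third to the sixth place with 18.6 ± 0.252 FPKM, below SERPINB8 with 37.4 ± 4.87 and SERPINB7 with 34.3 ± 1.93. SERPINB1 and SERPINB6, with 48.1 ± 2.19 and 47.5 ± 3.69 FPKM, could no longer be separated by their ranges, nor could SERPINB8 and SERPINB7. With bleogen pB1 only the ranges of SERPINB3 and SERPINB4 overlapped among neighbours.

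**Figure D1:**
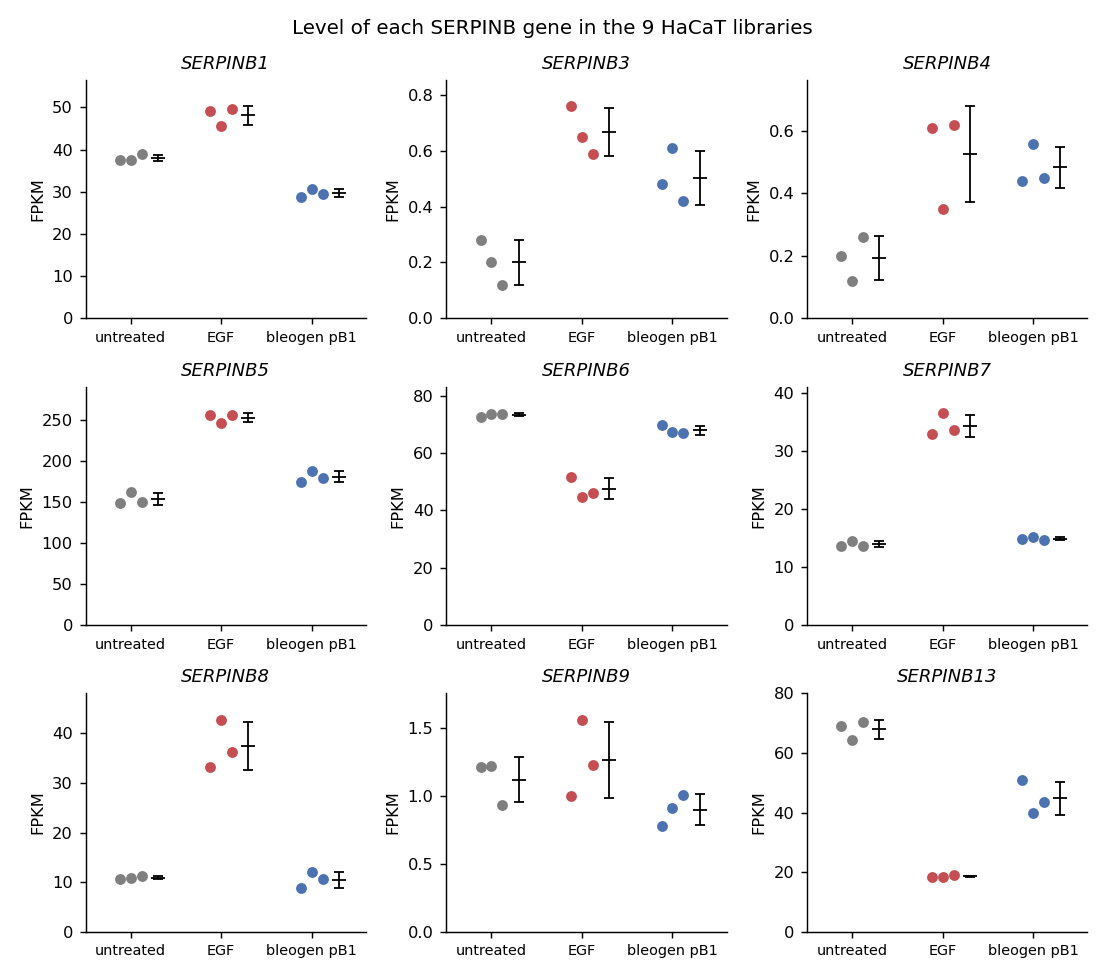
FPKM (vertical axis, linear from 0, a scale of its own for each gene) of the 9 SERPINB genes in the 3 untreated, 3 EGF-treated and 3 bleogen pB1-treated HaCaT libraries. Each point is 1 library, and the black bar with whiskers is the group mean ± SD. The EGF libraries lie apart from the untreated ones for every gene but SERPINB9, above them for 6 genes and below them for SERPINB6 and SERPINB13. Over all tested genes, the CPM ranges of EGF-treated and untreated cells did not overlap for 70.4%. SERPINB3 and SERPINB4, among the 6, passed the count filter of the tests below only through their treated libraries.

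To see how each treatment moved the 9 genes, expected counts were compared with edgeR's quasi-likelihood test in 1 fit over all 9 libraries, with Benjamini-Hochberg adjustment over 12394 genes. A gene is called here when its adjusted p was at most 0.05 and its log2 fold change at least 0.5 in size. In EGF-treated against untreated cells 7 of the 9 genes were called, 5 of them higher and 2 lower, where 36.9% of all tested genes were called, 15.1% higher and 21.8% lower. The median log2 fold change was 0.78 over the 9 genes and −0.01 over all genes tested, and it was 0.40 over the 7 genes that exceeded the limit of the count filter in every untreated library. SERPINB3 and SERPINB4 passed the count filter through the treated libraries, since 1 and 0 of the 3 untreated libraries exceeded its limit of 0.485 CPM. They therefore had to differ to be tested, so that their calls add nothing to the count. Of the other 7 genes 5 were called, 3 higher and 2 lower. With at least 10 counts required in every library the same number, 5 of 7, was called. The CPM ranges of EGF-treated and untreated cells did not overlap for 8 of the 9 genes, and for 70.4% of all genes. SERPINB3 and SERPINB4 are among these 8 genes and add nothing to this count either.

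In bleogen pB1-treated against untreated cells 1 of the 9 genes was called, SERPINB13, which was lower, where 1.48% of all tested genes were called 1.26% lower and 0.218% higher. The CPM ranges did not overlap for 6 of the 9 genes, and for 29.1% of all genes. These 6 again include SERPINB3 and SERPINB4, which were tested only because their treated libraries passed the filter. The median log2 fold change was −0.06 over the 9 genes, −0.12 over the 7 and −0.001 over all genes. EGF-treated cells were also compared directly with bleogen pB1-treated cells, at the unequal doses used. Here 6 of the 9 genes were called, 5 higher and 1 lower in EGF-treated cells, where 28.8% of all genes were called, 10.8% higher and 18% lower. Without a fold limit 7 of the 9 genes and 58.2% of all genes passed the adjusted p, and the CPM ranges did not overlap for 8 of the 9 genes and 62.4% of all genes. Both treatments were compared with the same untreated libraries, so that the differences of a gene in these comparisons are not independent. As the data are of bulk RNA, a lower level cannot be told apart from fewer cells that express the gene.

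**Figure D2:**
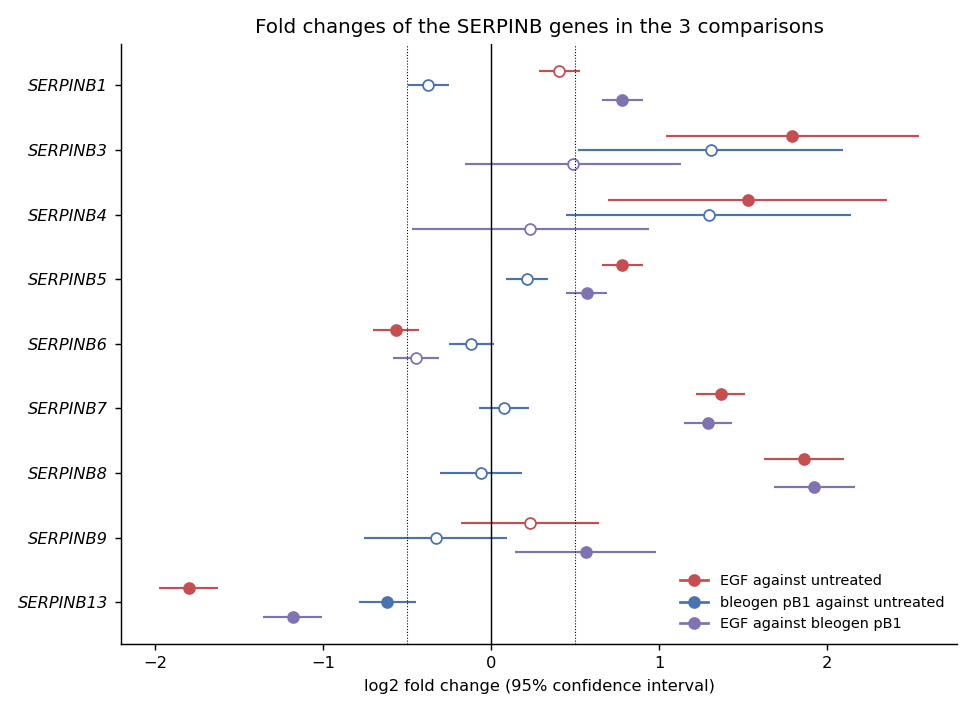
Log2 fold change (horizontal axis) of each SERPINB gene with its 95% confidence interval in EGF against untreated (red), bleogen pB1 against untreated (blue) and EGF against bleogen pB1 (purple), from edgeR over 9 libraries. Filled points are called, open points are not, and dotted lines mark a log2 fold change of 0.5 in either direction. SERPINB13 is the only gene called in all 3 comparisons, and SERPINB1 lies on opposite sides of 0 for the 2 treatments.

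SERPINB8, an inhibitor of the proprotein convertase furin, was higher with EGF. Its FPKM was 10.6, 10.9 and 11.2 in untreated, 33.2, 42.7 and 36.2 in EGF-treated and 8.83, 12.01 and 10.7 in bleogen pB1-treated cells. All EGF libraries lay above all others, while the bleogen pB1 libraries enclosed the untreated ones. The log2 fold change was 1.86 ± 0.11 (SE, adjusted p = 2.99e-08) with EGF, which is 3.63-fold. With bleogen pB1 it was −0.06, with a 95% confidence interval of −0.31 to 0.18 (adjusted p = 0.795). In EGF against bleogen pB1 it was 1.92 ± 0.11 (adjusted p = 3.23e-08). The deposited length of SERPINB8, an average over its 8 transcripts, was 3304 to 3319 bases in untreated and 3322 to 3368 bases in EGF-treated cells, so the ranges did not overlap, whereas the bleogen pB1 libraries (3284 to 3342 bases) overlapped both. HMSD, which shares bases with SERPINB8, went the other way, with 63, 56 and 44 counts in untreated and 20, 24 and 32 in EGF-treated cells (log2 fold change −1.07 ± 0.25, adjusted p = 0.00200).

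SERPINB7 (megsin), whose loss causes a palmoplantar keratosis, was also higher in EGF-treated cells. Its FPKM was 13.6, 14.5 and 13.6 in untreated, 32.9, 36.5 and 33.5 in EGF-treated and 14.8, 15.2 and 14.6 in bleogen pB1-treated cells. The EGF libraries stood apart by more than the spread within any group, and the lowest bleogen pB1 library exceeded the highest untreated one by little and did not exceed it in CPM. The log2 fold change was 1.37 ± 0.07 (adjusted p = 5.34e-09) with EGF, which is 2.58-fold. With bleogen pB1 it was 0.08, with an interval of −0.07 to 0.23 (adjusted p = 0.555). The direct comparison of the treatments gave 1.29 ± 0.07 (adjusted p = 1.24e-08).

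SERPINB5 (maspin), the non-inhibitory member, had the highest level in all 9 libraries. Its FPKM was 149, 162 and 151 in untreated, 257, 247 and 256 in EGF-treated and 175, 188 and 180 in bleogen pB1-treated cells. The 3 groups did not overlap, and the bleogen pB1 libraries lay between the untreated and the EGF libraries. With EGF the gene rose 1.72-fold (log2 fold change 0.78 ± 0.06, adjusted p = 1.83e-07). With bleogen pB1 the log2 fold change was 0.21 ± 0.06 and missed the threshold (adjusted p = 0.0546, interval 0.09 to 0.34). Between the treatments it was 0.57 ± 0.06 (adjusted p = 4.02e-06), close to the fold limit.

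SERPINB13 (hurpin), an inhibitor of the lysosomal cysteine proteases cathepsin L and cathepsin K, fell in both treatments. Its FPKM was 69.2, 64.4 and 70.3 in untreated, 18.5, 18.5 and 18.9 in EGF-treated and 50.95, 39.9 and 43.5 in bleogen pB1-treated cells. The 3 groups did not overlap, and the bleogen pB1 libraries again lay between the others. With EGF the level fell by 1.80 ± 0.08 on the log2 scale (adjusted p = 2.83e-09), which made the untreated level 3.49-fold that of EGF-treated cells. With bleogen pB1 the gene fell by 0.62 ± 0.08 (adjusted p = 0.000836), with an untreated level 1.54-fold that of treated cells. In EGF against bleogen pB1 the log2 fold change was −1.18 ± 0.08 (adjusted p = 1.47e-07), so that the fall was larger with EGF at these doses. The ratio of SERPINB5 to SERPINB13, formed from FPKM within each library, was 2.14 to 2.52 in untreated, 13.3 to 13.9 in EGF-treated and 3.43 to 4.71 in bleogen pB1-treated cells.

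SERPINB3 and SERPINB4, the squamous cell carcinoma antigens, were the lowest of the 9 genes. SERPINB3 is known to inhibit cathepsins of the papain family and SERPINB4 the chymotrypsin-like enzymes cathepsin G and chymase. SERPINB3 had 10, 7 and 4.32 expected counts in untreated, 27.1, 23 and 21.99 in EGF-treated and 17, 21.99 and 15 in bleogen pB1-treated cells. SERPINB4 had 7, 4 and 8.68, 21.9, 12 and 23.01, and 15, 20.01 and 16 counts in the same order. For both genes every treated library lay above every untreated one, at levels of 0.59 to 0.76 and 0.35 to 0.62 FPKM with EGF. With EGF the log2 fold change was 1.79 ± 0.35 (adjusted p = 0.000560) for SERPINB3 and 1.53 ± 0.38 (adjusted p = 0.00342) for SERPINB4. As both genes were tested only because their treated libraries passed the filter, these values describe them and are no support for a rise. With bleogen pB1 neither was called, with log2 fold changes of 1.31 ± 0.36 (adjusted p = 0.0628) and 1.29 ± 0.39 (adjusted p = 0.0791). The difference between EGF and bleogen pB1 missed the threshold for both genes, with intervals of −0.16 to 1.13 (adjusted p = 0.177) and −0.47 to 0.94 (adjusted p = 0.561).

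The split of reads within this pair is uncertain. In 4 of the 9 libraries the counts of SERPINB3 and SERPINB4 were not whole, while their sum was whole in 9 of 9 (within 0.005 counts). The summed counts were 17, 11 and 13 in untreated, 49, 35 and 45 in EGF-treated and 32, 42 and 31 in bleogen pB1-treated cells, and both treated groups lay above the untreated one. Entered as 1 gene, the pair passed the filter's limit in 3 of 3 untreated libraries and had a log2 fold change of 1.68 (adjusted p = 0.000117) with EGF and of 1.30 (adjusted p = 0.0210) with bleogen pB1, which passed both limits. Between the treatments it was 0.38 (adjusted p = 0.184).

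SERPINB1, an inhibitor of neutrophil elastase, cathepsin G and proteinase 3 that lies on chromosome 6, lay above the untreated level with EGF and below it with bleogen pB1. Its FPKM was 37.5, 37.6 and 38.9 in untreated, 49.2, 45.6 and 49.6 in EGF-treated and 28.8, 30.8 and 29.6 in bleogen pB1-treated cells. The 3 groups did not overlap, with the untreated libraries in the middle. With EGF the log2 fold change was 0.40 ± 0.06 (adjusted p = 3.54e-05) and with bleogen pB1 −0.37 ± 0.06 (adjusted p = 0.00260). Both are below the fold limit of 0.5, so that SERPINB1 was not called against untreated cells. The difference between the treatments was 0.78 ± 0.06 (adjusted p = 2.23e-07) and was called. Without a fold limit 8 of the 9 genes passed the adjusted p with EGF, against 66.1% of all genes, and 2 with bleogen pB1, against 4.11%. SERPINB1 is the gene added in each case. The 8 genes with EGF include SERPINB3 and SERPINB4, which were tested only because their treated libraries passed the filter.

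SERPINB6, an inhibitor of cathepsin G and of kallikrein-related peptidases, was lower with EGF. Its FPKM was 72.8, 73.7 and 73.8 in untreated, 51.8, 44.8 and 46.0 in EGF-treated and 69.7, 67.3 and 66.9 in bleogen pB1-treated cells. The EGF libraries lay far below the others, and the bleogen pB1 libraries lay just below the untreated ones without overlap. With EGF the level fell by 0.56 ± 0.06 on the log2 scale (adjusted p = 6.33e-06). With bleogen pB1 the log2 fold change was −0.12, with an interval of −0.25 to 0.02 (adjusted p = 0.293). Its difference between the treatments, −0.45 ± 0.06 (adjusted p = 6.78e-05), was below the fold limit. The deposited length of SERPINB6, averaged over 8 transcripts, was 1565 to 1581 bases in untreated, 1559 to 1570 in EGF-treated and 1585 to 1595 in bleogen pB1-treated cells, so only the bleogen pB1 range lay apart.

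SERPINB9, the inhibitor of granzyme B, was low and was not called against untreated cells. Its FPKM was 1.21, 1.22 and 0.930 in untreated, 1.00, 1.56 and 1.23 in EGF-treated and 0.780, 0.910 and 1.01 in bleogen pB1-treated cells. On this scale the groups overlapped, and in CPM the EGF libraries (4.25 to 6.60) lay just above the bleogen pB1 libraries (3.15 to 4.03). The log2 fold change was 0.23 with EGF (interval −0.18 to 0.64, adjusted p = 0.294) and −0.33 with bleogen pB1 (interval −0.75 to 0.09, adjusted p = 0.348). Between the treatments it was 0.56 ± 0.19 (adjusted p = 0.0239). That call was lost without EGF replicate 2 (adjusted p = 0.102) and without bleogen pB1 replicate 1 (adjusted p = 0.0818). In all it was lost under 8 of 23 other settings, a fold limit of 1 among them. The expected counts of SERPINB9 were not whole in 9 of 9 libraries.

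SERPINB5 made up the largest share of the 9 genes. Their summed FPKM was 355 to 365 in untreated, 437 to 445 in EGF-treated and 347 to 355 in bleogen pB1-treated cells. SERPINB5 made up 41.9% to 44.4% of it in untreated, 56.4% to 57.8% in EGF-treated and 50.03% to 52.9% in bleogen pB1-treated cells. SERPINB13 made up 17.7% to 19.5%, 4.16% to 4.28% and 11.2% to 14.6%, and SERPINB6 20.2% to 20.5%, 10.3% to 11.6% and 18.9% to 19.9%. For SERPINB5 and SERPINB13 these shares did not overlap between the 3 groups. SERPINB8 took 2.98% to 3.10% of the sum in untreated, 7.46% to 9.76% in EGF-treated and 2.53% to 3.38% in bleogen pB1-treated cells. These are shares of 1 sum and move with each other, and they were not tested.

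The 4 clade B serpins outside the 9 genes lie in the chromosome 18 locus as well. SERPINB2, an inhibitor of the plasminogen activators, had 28.5, 28.3 and 24.4 FPKM in untreated, 81.5, 106 and 92.8 in EGF-treated and 38.1, 31.1 and 34.96 in bleogen pB1-treated cells. All EGF libraries lay above all others. SERPINB2 rose with EGF by a log2 fold change of 1.85 ± 0.11 (adjusted p = 1.85e-08), a size like that of SERPINB8, and had 0.34 ± 0.11 with bleogen pB1 (adjusted p = 0.0888). SERPINB10 had 16, 11 and 17 counts in untreated, 9, 21 and 19 in EGF-treated and 28, 27 and 27 in bleogen pB1-treated cells, and was not called in any comparison (bleogen pB1 against untreated 0.85 ± 0.32, adjusted p = 0.135). SERPINB12 had 0 to 2 counts in a library, below the floor of 3 counts.

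Along chromosome 18, neighbouring serpins did not move as 1 block. With EGF, SERPINB5, SERPINB7, SERPINB2 and SERPINB8 were higher. SERPINB13, which lies 81.9 kb from SERPINB5 and 32.6 kb from SERPINB4, was lower. SERPINB4 and SERPINB3 lay higher as well, but they were tested only because their treated libraries passed the count filter. Of 4 tested genes around the serpins, KDSR, an enzyme of sphingolipid synthesis, was higher (0.59 ± 0.05, adjusted p = 1.29e-06), HMSD was lower, and 2 were not called. With bleogen pB1, 0 of these 4 were called by edgeR or by DESeq2, and 0 had an unadjusted p under 0.05 with edgeR. Only 1.48% of all tested genes were called by edgeR in that comparison. On chromosome 6, 3 of 10 tested neighbours were higher and 3 lower with EGF, among them TUBB2A (1.10 ± 0.10, adjusted p = 1.66e-06), GMDS (0.52 ± 0.09, adjusted p = 0.000272), SLC22A23 (−1.21 ± 0.15, adjusted p = 1.20e-05) and RIPK1 (−0.68 ± 0.09, adjusted p = 1.80e-05). TUBB2A, a tubulin, was also higher with bleogen pB1 (0.56 ± 0.11, adjusted p = 0.0112). The median log2 fold change with EGF was 0.01 over the neighbours on chromosome 18 and 0.02 over those on chromosome 6. Among all tested genes 15.1% were called higher and 21.8% lower with EGF.

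**Figure D3:**
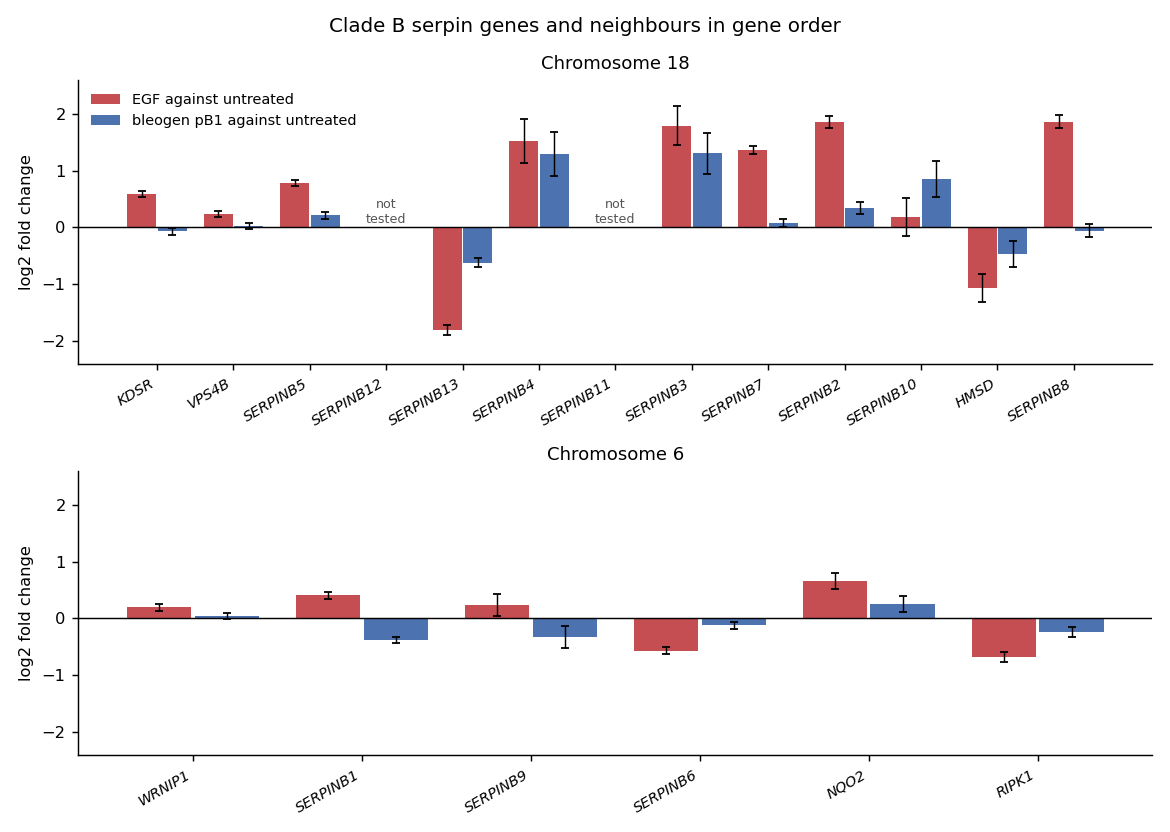
Log2 fold change ± SE (vertical axis) of the clade B serpins and some flanking genes in their order along chromosome 18 (top) and chromosome 6 (bottom), for EGF (red) and bleogen pB1 (blue) against untreated cells. Spacing is by order and not to genomic scale, and genes not tested are marked. With EGF, SERPINB13 points down between SERPINB5 and SERPINB4, which point up. SERPINB4 and SERPINB3 were tested only because their treated libraries passed the count filter.

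To set the inhibitors beside their targets, 21 genes of proteases that clade B serpins inhibit, or of their close relatives, were read from the same fit. Of these, 15 were tested, and with EGF 2 were higher, 6 were lower and 7 were not called, with a median log2 fold change of −0.27. Among all tested genes 15.1% were called higher and 21.8% lower with EGF. On the log2 scale CASP1, the inflammatory caspase, fell by 1.97 ± 0.09 (adjusted p = 3.80e-09). The lysosomal proteases CTSH and CTSB had log2 fold changes of −1.78 ± 0.12 (adjusted p = 6.93e-08) and −1.07 ± 0.07 (adjusted p = 7.59e-08). PLAT, the tissue plasminogen activator, fell by 1.33 ± 0.11 (adjusted p = 4.87e-07). The 2 genes that were higher, named after their values were seen, are FURIN (0.64 ± 0.06, adjusted p = 2.45e-06), the protease that SERPINB8 inhibits, and CTSL (0.72 ± 0.07, adjusted p = 1.54e-06), a target of SERPINB13 and SERPINB3. Other cathepsins, also named afterwards, did not rise with them. CTSK, likewise a target of SERPINB13, had an EGF level 0.932-fold that of untreated cells. For CTSS it was 0.404-fold and for CTSV 0.721-fold. GZMB, the target of SERPINB9 and likewise named after its values were seen, had 0 counts in the untreated and bleogen pB1 libraries and 7, 5 and 3 counts in the EGF libraries, and did not pass the count filter. With bleogen pB1, 0 of the 15 were called by edgeR or by DESeq2, 7 had an unadjusted p under 0.05 with edgeR, and the median was −0.16. Only 1.48% of all tested genes were called by edgeR in that comparison.

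Serpins outside clade B and protease inhibitors of other families differed in how they moved. Of 7 tested serpins outside clade B, 3 were higher and 2 lower with EGF, where 15.1% of all tested genes were called higher and 21.8% lower. SERPINE2, which inhibits thrombin and the plasminogen activators, rose by 4.30 ± 0.20 (log2 fold change, adjusted p = 2.83e-09), and SERPINA1, the inhibitor of neutrophil elastase in plasma, by 2.37 ± 0.26 (adjusted p = 5.89e-06). SERPINF1 was lower with both EGF (−2.61 ± 0.25, adjusted p = 1.85e-06) and bleogen pB1 (−1.03 ± 0.21, adjusted p = 0.0196), and SERPINF2 was lower with EGF. Of 8 tested inhibitors of other kinds, such as cystatins, 6 were not called with EGF. SLPI was lower (−0.73 ± 0.17, adjusted p = 0.00233), and PI3 (elafin) had 0, 1 and 0 counts in untreated and 12, 18 and 18 in EGF-treated cells. The median with EGF was −0.48 over the serpins outside clade B and −0.01 over the other inhibitors.

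For the members other than SERPINB13 the gene most like each was read by Pearson's r of log2 CPM over the 9 libraries, among genes with at least 50 counts on average. It was ARL2BP for SERPINB1 (r = 0.983), THAP4 for SERPINB3 (0.965), FNDC3A for SERPINB4 (0.982), GDF11 for SERPINB5 (0.996), ZC3H6 for SERPINB6 (0.996), ECM1 for SERPINB7 (0.998), WNT7A for SERPINB8 (0.998) and TFE3 for SERPINB9 (0.967). The 9 libraries form 3 groups, so that r follows the differences between groups rather than those within them. Between 878 and 920 genes reached an r of 0.95 with each of SERPINB5, SERPINB6, SERPINB7, SERPINB8 and SERPINB13, against 27 with SERPINB1, 8 with SERPINB4, 6 with SERPINB3 and 1 with SERPINB9.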

How the data were processed

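Poly(A) RNA of 9 HaCaT libraries (3 untreated, 3 EGF, 3 bleogen pB1, grouped by the labels) was sequenced and mapped to GRCh38.p12, per the paper and the labels. The authors deposited, per gene and library, an expected count (not scaled for depth), a length and an FPKM (that count divided by effective length and depth). The counting program, and whether it used strand, are not given in the sources used here. The paper names a PureLink kit and the labels an RNeasy kit. A gene missing from a file was counted as 0.

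Expected counts were rounded and tested with edgeR 4.0.16 (R 4.3.3): filterByExpr, TMM factors (0.9635 to 1.024), glmQLFit and glmQLFTest on all 9 libraries (6 residual degrees of freedom), with Benjamini-Hochberg adjustment. The SE was obtained from the size of the log2 fold change and the F statistic. CPM uses TMM-scaled library sizes. The exact permutation test of 3 against 3 values cannot give a p below 0.1. Thresholds follow the paper, which used DESeq2. Alternatives were DESeq2 1.42.0, limma 3.58.1 on log2(FPKM + 1) or log2(FPKM + 0.1), other scalings, filters and fold limits, a replicate block and each library left out.

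The members, gene lists and motifs were chosen with earlier results of these data known. Named genes are the members, the other clade B serpins, at most 4 called genes of each further list with the smallest adjusted p (EGF), those called with bleogen pB1, and the gene most like each member. Of the genes that meet this rule, 2 are not reported here. Among marker lists, EGF gave 4 keratinocyte markers higher and 4 lower of 10 tested, with KRT5 (−1.12), ITGA6 (1.30), KRT15 (−1.85) and KRT14 (0.88) first, and lower values for COL3A1 (−2.98), DCN, VWF (−1.94) and PMEL (−0.80). DCN and VWF were tested only because libraries without EGF passed the filter, and DESeq2 did not call PMEL. With bleogen pB1, KRT1 was higher (0.83, adjusted p = 0.0478). No replicate pair agreed within sampling noise (chi-square per degree of freedom 3.92 to 21.4). Gene positions are from GENCODE and promoter windows from RefSeq. Scripts were tested on simulated data.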

Additional observations from a re-analysis of the deposited data

How the results depend on the processing

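Over 603 values of single members under other settings, 573 kept their direction and their side of the threshold, 20 lost it, 9 gained it and 1 turned its direction: SERPINB8 with bleogen pB1, −0.17 to 0.054 with a library left out, the highest without bleogen pB1 replicate 1. In EGF against untreated, 7 of the 9 genes were called without any 1 library (range 7 to 7), by DESeq2 and under every scaling, and 5 with limma on log2(FPKM + 1). The 7 include SERPINB3 and SERPINB4, whose calls add nothing to the count because of the filter. In the main fit of this comparison 36.9% of all tested genes were called. In bleogen pB1 against untreated, 1 was called with each library left out (range 1 to 1), 2 with no fold limit, 0 with a fold limit of 1 and 2 with SERPINB3 and SERPINB4 summed, of 8 genes. Over all genes this comparison had 183 calls, and 102 to 436 with a library left out, the highest without bleogen pB1 replicate 1 and the lowest, 102, without untreated replicate 1 or bleogen pB1 replicate 3. It had 128 and 133 without untreated replicate 2 and 3, and 109 without bleogen pB1 replicate 2. In EGF against bleogen pB1, 6 were called, 3 with a fold limit of 1 and 5 to 7 with a library left out. Of all tested genes 28.8% were called there in the main fit. Of 23 other settings SERPINB5 lost its call in 6 (lowest value 0.48), SERPINB6 gained one in 7 (largest −0.54) and SERPINB9 lost its call in 8. Whether these 3 genes were called therefore depended on the setting. The 23 include no fold limit and a fold limit of 1, both applied to the main fit, where the outcome follows from the main values alone. With upper-quartile scaling SERPINB9 had an adjusted p of 0.0518. That scaling moved the median of all genes with EGF to −0.12 and the share of higher genes among the calls from 41.0% to 30.2%. In the level order, 7 of 8 neighbouring pairs stayed apart with any untreated library left out (range 7 to 7) and with CPM per kilobase.

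The sources name no pairing by replicate number. Same-numbered deviations correlated by 0.00390 to 0.0449 in EGF against untreated, −0.0304 to 0.207 in bleogen pB1 against untreated and 0.0269 to 0.0562 in EGF against bleogen pB1. Differently numbered ones correlated by −0.0756 to 0.0408, −0.253 to 0.163 and −0.0780 to 0.0505 in the same order. Values of this size cannot decide whether the numbers pair the libraries. With the replicate block 7, 1 and 6 of the genes were called and 4560, 186 and 3550 of all genes, and the block changed no call of a member. At this depth SERPINB3, SERPINB4 and SERPINB9 carry the widest errors.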
